A study of Homo sapiens with 2 samples.

Results

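The 10 genes described here are sensors and chaperones of the endoplasmic reticulum (ER): the chaperones and folding factors HSPA5, HSP90B1, DNAJB9, SDF2L1 and PDIA4, the degradation factor HERPUD1, the transcription factor XBP1, and the stress sensors ERN1 (IRE1), ATF6 and EIF2AK3 (PERK). They were chosen by name, and every probe set that the platform annotation pairs with 1 of these genes alone was used, which gave 23 of 54675 probe sets and 10 of 19775 named genes. Another 2 probe sets list HSP90B1 together with a microRNA gene and were not used, among them the brightest of all that list HSP90B1. The arrays were 2, both of RNA from KYSE170-luc, an esophageal squamous carcinoma line with a luciferase label in its name. The empty vector group was 1 array of that line 12 h after transfection with a vector without insert. The SOX17 group was 1 array of the same line 12 h after transfection with an expression plasmid for SOX17, a transcription factor of endoderm and endothelium. Both groups therefore share the line and the transfection itself, and each is a single array of a single line. The comparison asks which transcripts differ once SOX17 has been introduced.

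Proteins that enter the ER are folded there by chaperones, and those that fail to fold are exported and degraded. HSPA5 (BiP) binds unfolded chains and also holds the stress sensors ERN1, EIF2AK3 and ATF6 inactive. When unfolded chains build up, ERN1 splices the XBP1 mRNA, ATF6 is cut free in the Golgi, and EIF2AK3 phosphorylates the initiation factor eIF2 alpha, which slows translation. XBP1 and the ATF6 fragment then activate chaperone and degradation genes through ER stress response elements (ERSE), and secretory cells depend on this loop.

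The promoters of 5 members carried such an element, and they are shown because the element is the known link from the sensors to the chaperones. Promoters were taken from RefSeq (GRCh38.p14) as 250 bases before to 50 bases after an annotated start. All 10 members matched, PDIA4 and XBP1 with 2 starts each. ERSE was searched as CCAAT followed, after 9 bases of any kind, by CCACG, and its shorter relative ERSE-II as ATTGG followed, after 1 base, by CCACG, on both strands. Both end in CCACG, so 1 such stretch could serve either, but no member promoter held exact matches to both. ERSE stood in the promoters of HSPA5, HSP90B1 and XBP1, and in 0.0769% of all 35116 promoters. ERSE-II stood in those of HERPUD1 and SDF2L1, and in 0.0541% of all promoters. The complete windows of HSPA5 (chr9:125241294-125241593, minus strand) and HSP90B1 (chr12:103930160-103930459, plus strand) follow. For XBP1 (chr22:28800583-28800641, minus strand), HERPUD1 (chr16:56932005-56932055, plus strand) and SDF2L1 (chr22:21642094-21642144, plus strand) the element is shown with 20 bases on either side. All are written 5′ to 3′ on the gene's strand, and capitals mark the fixed letters of the element.
HSPA5: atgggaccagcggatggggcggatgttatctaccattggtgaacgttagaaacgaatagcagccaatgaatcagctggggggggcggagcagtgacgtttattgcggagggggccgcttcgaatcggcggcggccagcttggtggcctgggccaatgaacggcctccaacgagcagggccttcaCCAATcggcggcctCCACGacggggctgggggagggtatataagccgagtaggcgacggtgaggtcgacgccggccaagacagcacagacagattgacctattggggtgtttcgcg
HSP90B1: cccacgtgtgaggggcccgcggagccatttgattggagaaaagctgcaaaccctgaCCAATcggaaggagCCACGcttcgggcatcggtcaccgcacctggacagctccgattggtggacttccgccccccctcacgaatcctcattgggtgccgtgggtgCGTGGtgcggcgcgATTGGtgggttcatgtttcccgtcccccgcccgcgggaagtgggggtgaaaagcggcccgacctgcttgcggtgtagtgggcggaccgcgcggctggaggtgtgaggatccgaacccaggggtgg
XBP1: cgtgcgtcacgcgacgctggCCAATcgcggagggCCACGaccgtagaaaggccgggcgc
HERPUD1: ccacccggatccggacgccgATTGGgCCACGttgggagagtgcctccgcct
SDF2L1: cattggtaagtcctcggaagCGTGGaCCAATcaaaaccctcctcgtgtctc

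Only exact matches to the fixed letters were counted, and forms that differ by a letter or more were not sought. HSPA5 held 1 such match, which began at -66 from the start. HSP90B1 held 2, at -194 and, on the opposite strand, at -89. XBP1 held 1 at -52. The ERSE-II of HERPUD1 began at -117 and that of SDF2L1, on the opposite strand, at -188. Neither element was found in the windows of DNAJB9, PDIA4, ERN1, ATF6 or EIF2AK3, which says only that these letters are not there. Another form of response element, TGACGTGG (UPRE), was found in 0 members and in 0.729% of all promoters. The C/EBP-ATF element TGATGCAA (CARE), of the kind that ATF4 binds, stood at -176 in HERPUD1, on the opposite strand, and in 0.866% of all promoters. The map of the promoters sets these matches side by side.

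**Figure D1:**
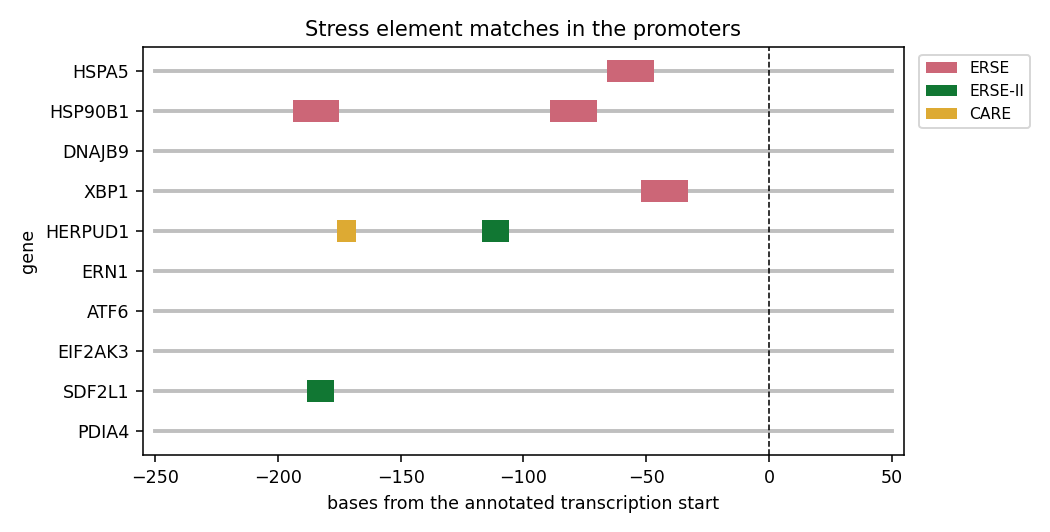
Matches to ERSE, ERSE-II and CARE (coloured boxes, drawn to the length of the match) in the promoters of the 10 genes, against distance in bases from the annotated start (x axis), which is the dashed line. Matches stand in 5 genes, all before the start, and HSP90B1 has 2 ERSE matches; the 2 starts of XBP1 and of PDIA4 are drawn on 1 line each.

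Intensities below are linear and as deposited, and a floor was set at 95, which is the 60th percentile when the readings of both arrays are pooled. A probe set that reached the floor in both groups counted as measured, and a gene was represented by its brightest probe set. Log2 ratios are SOX17 over empty vector throughout, and of a pair of readings the empty vector one comes first. With 1 array per group there is no replicate and no test, and each difference is one between these 2 RNA samples, in which the share of transfected cells and the change per cell cannot be told apart. The SD of 1 log2 ratio, taken from probe sets of the same gene, was 0.40 for the dimmest tertile of the measured probe sets, 0.27 for the middle one and 0.18 for the brightest. It covers error inside an array, not the variation from culture to culture.

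SOX17 itself was below the floor on all its readings, at 4.5 and 83.8 on the empty vector and SOX17 arrays for 1 probe set and at 19.1 and 6.5 for the other, which leaves the labels unchecked. The 24 poly-A spike-in probe sets, RNA added before labelling, were all higher on the SOX17 array (median log2 ratio 0.57). Their part in the results was not tested. Of 8 squamous markers with a named probe set 8 were measured, with summed intensities of 123941 and 125917. The readings were unequal, from 247.5 and 273 for KRT5 to 50352.6 and 52641.3 for SFN. Of 8 leukocyte markers 0 were measured (sums of 201.3 and 357.2), of 6 endothelial markers 0 (202.2 and 153.2), and of 6 columnar epithelial markers 0 (323.9 and 328.8), where the highest reading was 209.4 for VIL1 on the SOX17 array. Of 7 fibroblast markers 1 was measured, COL1A1 at 780.2 and 845.1 (sums of 945.5 and 1005.3).

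All 10 genes were measured on both arrays, through 19 of the 23 probe sets. The brightest probe set was lower on the SOX17 array for 7 genes and higher for 3, with a median log2 ratio of -0.10. Over all 10034 measured genes 45.4% had a ratio below 0 and the median was 0.03. With IDs ending in _x_at or _s_at removed, which leaves out HSP90B1, HERPUD1 and SDF2L1, 4 of the 7 remaining genes lay below 0. No member differed by 2-fold (0 of 10), a size that 0.747% of measured genes reached. At 1.5-fold there was 1, ATF6, which was higher on the SOX17 array. In either direction 6.97% of measured genes reached that size, and 3.78% did so upwards. As deposited, 7 of the 10 ratios lay within 1 SD of 0. The other 3 were those of HERPUD1, HSP90B1 and ATF6, and the last 2 lay beyond 2 SD. Over all measured genes 39.7% lay beyond 1 SD and 10% beyond 2 SD, and the counts among 10 members are no result beyond that background.

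**Figure D2:**
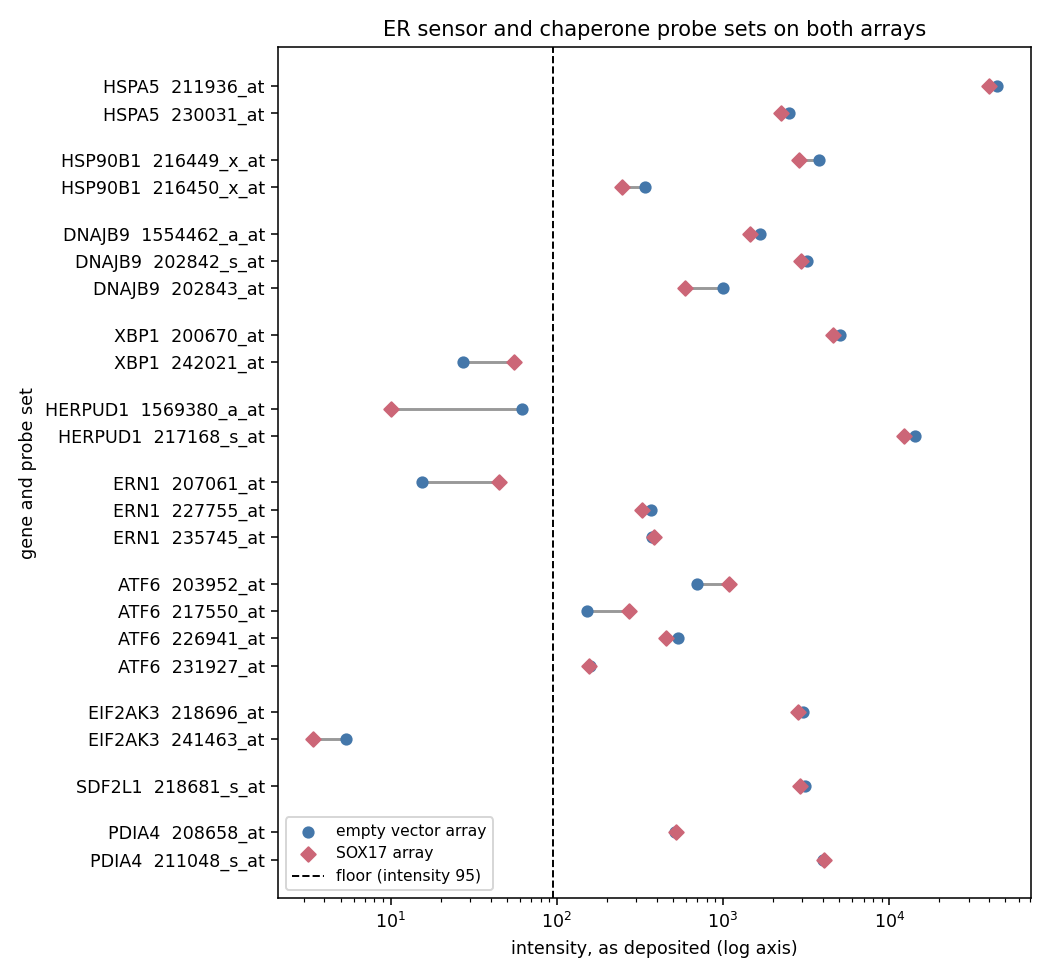
Intensity of each of the 23 probe sets (x axis, log scale, as deposited) on the empty vector array (circles) and the SOX17 array (diamonds), with the floor of 95 as a dashed line. The 4 probe sets left of the floor were not measured on either array, and among the others 1 probe set of DNAJB9 and 2 of ATF6 show the widest gaps.

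Among the chaperones, HSPA5 is the main Hsp70 of the ER lumen. Its brighter probe set read 44386.7 with empty vector and 39606.9 with SOX17, and the other read 2500.9 and 2228.4. The log2 ratios were -0.16 and -0.17, 1.12-fold lower on both, and 25.6% of measured genes had a ratio as low. The 2 probe sets thus gave nearly the same ratio, while over the 2754 genes with 2 measured probe sets the median gap was 0.24. Each ratio was smaller than the SD of 0.18 as deposited. After quantile normalization or loess the ratio of the brighter probe set was -0.26, which is beyond that SD.

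HSP90B1 (GRP94) is the Hsp90 of the ER, which folds integrins and Toll-like receptors among other clients. One probe set read 3765.8 and 2874.5 (log2 ratio -0.39, 1.31-fold lower on the SOX17 array), and the other 337 and 245.9 (-0.45). With each of the 10 genes taken on its brightest used probe set, -0.39 was the lowest ratio, and 9.28% of measured genes were as low. Both probe sets have IDs ending in _x_at, the mark of probes that can match other transcripts, and both were designed from 1 source sequence, so they do not check each other. The 2 unused probe sets, which list a microRNA gene beside HSP90B1, read 20735.1 and 15808.2 (-0.39) and 2866.2 and 1819.6 (-0.66). The annotation alone does not assign them to 1 gene.

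DNAJB9 (ERdj4) is a J-domain cochaperone of HSPA5 that restrains ERN1. Its 3 probe sets read 3199.5 and 2954.6, 1656.9 and 1459.1, and 1005 and 586.6. All 3 were lower on the SOX17 array, but by unequal amounts, with log2 ratios of -0.11, -0.18 and -0.78. The last, 1.71-fold lower, was the lowest of all 19 measured probe sets, at 2.93 SD from 0. Of the 1185 genes with 3 measured probe sets 23.3% spanned as wide a range. The gene's mean over its probe sets was -0.36, against -0.11 on the brightest.

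SDF2L1, which holds client proteins in solution together with ER J-proteins, read 3109.3 and 2922.8 on its only probe set (-0.09). PDIA4 (ERp72) is a protein disulfide isomerase. It read 4008.1 and 4051.7 on 1 probe set and 511.5 and 524.1 on the other, with log2 ratios of 0.02 and 0.04. These 2 genes were closest to level among the chaperones, and each of their ratios was under 1 SD.

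HERPUD1 is a membrane protein of the ER that helps to assemble the ubiquitin ligase complex for misfolded proteins. Its measured probe set read 14344.8 with empty vector and 12251.3 with SOX17 (-0.23, 1.17-fold lower), and 19.7% of measured genes were as low. Its other probe set lay below the floor on both arrays, at 61.5 and 10. XBP1, the factor that ERN1 activates by splicing, read 5042.4 and 4571.9 (-0.14). A further XBP1 probe set was below the floor at 27.1 and 55.2. The splice form that the XBP1 probes match is not given in the sources used here. The values describe the gene's signal and not its splicing.

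Among the sensors, ERN1 is the kinase and ribonuclease that splices XBP1. It read 371.3 and 382.4 on 1 probe set (0.04) and 370 and 324.3 on another (-0.19), so its probe sets differed in sign, within the SD of 0.27. A further ERN1 probe set was below the floor, at 15.4 and 45.2. EIF2AK3 (PERK), the sensor that slows translation, read 3031.8 and 2839.1 (-0.09), and its other probe set 5.4 and 3.4, below the floor.

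ATF6, the membrane-bound factor cut free under stress, had 4 measured probe sets that disagreed. The brightest read 698.6 with empty vector and 1089.5 with SOX17 (log2 ratio 0.64, 1.56-fold higher). A dimmer one read 152.3 and 273 (0.84). The remaining pair read 535.4 and 453.1 (-0.24) and 157.4 and 156.9 (-0.0046). The gene was thus higher on 2 probe sets, lower on 1 and level on the last. On its brightest probe set 2.93% of measured genes were as high. The 4 ratios spanned 1.08 on the log2 scale, against a median span of 0.55 over the 440 genes with 4 measured probe sets, of which 7.5% spanned as much. The mean over the 4 was 0.31, which did not reach 1.5-fold.

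**Figure D3:**
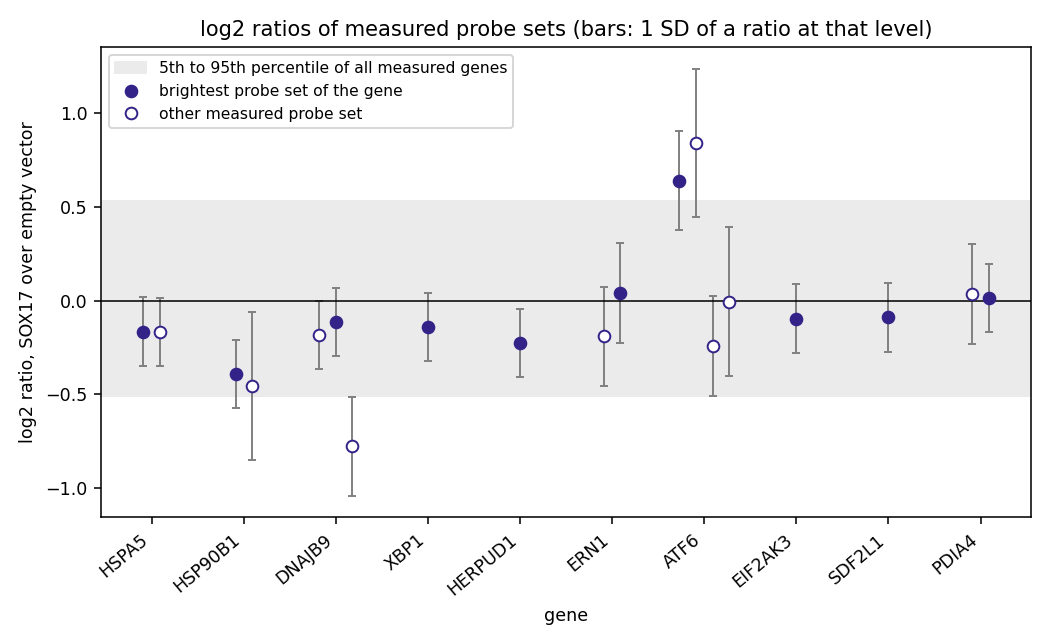
SOX17 over empty vector log2 ratio (y axis) for each of the 19 measured probe sets, by gene, with bars of 1 SD of a ratio at that level. Filled points are the brightest probe set of a gene, and the grey band runs from the 5th (-0.51) to the 95th percentile (0.53) of all measured genes; 2 ATF6 probe sets lie above the band and 1 of DNAJB9 below it.

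By probe set, 14 of the 19 measured lay below 0 and 5 above, against 48.9% below 0 over all 17364 measured probe sets. HSPA5, HSP90B1 and DNAJB9 were lower on every measured probe set they had, and PDIA4 was higher on both of its own. The 5 members with ERSE or ERSE-II in the promoter had ratios of -0.39 (HSP90B1), -0.23 (HERPUD1), -0.16 (HSPA5), -0.14 (XBP1) and -0.09 (SDF2L1). All 5 were below 0, against 45.4% of all measured genes, but as deposited those of HSPA5, XBP1 and SDF2L1 lay within 1 SD of it. HSP90B1, HERPUD1 and SDF2L1 had no measured probe set with IDs ending in _x_at or _s_at removed. Of the other 5 members DNAJB9 (-0.11) and EIF2AK3 (-0.09) were below 0, and ERN1, PDIA4 and ATF6 above.

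Other genes with the same elements had ratios on both sides of 0. This comparison was chosen after the values had been seen, and 54.6% of all measured genes lay above 0. Of 10 further measured genes with ERSE 7 had a ratio above 0 and 3 below, with a median of 0.17. That median was 0.07 when probe sets were averaged and 0.04 with IDs ending in _x_at or _s_at removed. It was 0.16, 0.15 and 0.14 after median centring, quantile normalization and loess. With no floor, or with the floor at the 75th percentile, it was 0.24. The ER genes among them included the lectin chaperones CALR, at 4279.8 and 5384.7 (0.33, and -0.37 on the lowest of its 3 probe sets), and CANX, at 20616.3 and 19297.1 (-0.10, and -0.29 to 0.15 over 4 probe sets). The disulfide isomerase PDIA6 read 11473.6 and 12275.8 (0.10, and -0.08 to 0.39 over 4 probe sets), and CRELD2 read 3346.2 and 3952 (0.24). SERP1, which protects membrane proteins during import, read 17056.8 and 20648.9 (0.28, and -0.17 on the lowest of its 4 probe sets). The oxidase ERO1B read 211.3 and 175.5 (-0.27, and -0.74 on its other probe set). FICD, which modifies HSPA5 with AMP, read 201.4 and 210 (0.06). The rest were EIF2A, TRIM5 and TMEM120A, at -0.09, 0.42 and 0.45. Of 13 further measured genes with ERSE-II 10 lay above 0 and 3 below, among them HYOU1, the large Hsp70 relative of the ER, at 1553.4 and 1558.2 (0.0045). Their median of 0.09 became 0.030 after quantile normalization, 0.049 with those IDs removed and 0.014 with the floor raised to the 75th percentile. Over all measured genes the median was 0.03 as deposited, and 0.035, 0.013 and 0.022 under those settings in the same order.

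The wider ER lists, which leave out the 10 genes, are given by step of the pathway. Of 30 other measured folding factors 17 were below 0 (median -0.02). At least 1.5-fold lower were 2 of them, against 3.19% of all measured genes. UGGT2, a relative of the glucosyltransferase that tags unfolded glycoproteins, read 608.3 and 330.7 (-0.88, and -0.98 to -0.70 over 3 probe sets), and SIL1, the nucleotide exchange factor of HSPA5, read 267.5 and 171.4 (-0.64). The HSPA5 cochaperone DNAJC10 lay at -0.40 (-0.12 on the highest of its 3 probe sets) and the prolyl isomerase FKBP7 at 0.44. Of 24 genes of ER-associated degradation, the step in which HERPUD1 acts, 11 were below 0 (median 0.06) and 0 reached 1.5-fold. The mannosidases MAN1B1 and EDEM3 lay at 0.45 and -0.36, and at 0.15 and -0.63 on their other probe sets. The segregase VCP lay at -0.36 but at -0.02 on its other probe set. UBXN4 lay at -0.34 but at 0.14 on another of its 3 probe sets.

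Of 27 genes of ER import and N-glycosylation 12 were below 0 and 0 reached 1.5-fold. Their median of 0.09 became 0.0305 after loess or quantile normalization and -0.0085 with IDs ending in _x_at or _s_at removed. SEC63, the J-domain protein that brings HSPA5 to the translocon, read 4592.1 and 3325.3 (-0.47, and -0.66 to -0.17 over 3 probe sets). The translocon subunit SEC61B read 22966.2 and 17716.1 (-0.37). SSR2 of the translocon-associated complex lay at 0.46, and the signal peptidase subunit SPCS3 at -0.37 but at 0.21 on another probe set. Of 23 genes of transport between ER and Golgi 7 were below 0 (median 0.09). KDELR3, a receptor that returns chaperones such as HSPA5 to the ER, read 120.8 and 189.1 (0.65, and 0.58 on its other probe set), near the floor, and was the 1 gene past 1.5-fold. The coat subunits SEC24C, SEC24D and COPB1 lay at 0.43, 0.27 and 0.26, with COPB1 at 0.02 on its other probe set.

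Of 17 relatives, partners and processing factors of the sensors 6 were below 0 (median 0.08, and 0.0036 with those IDs removed), and 2 were at least 1.5-fold higher, against 3.78% of all measured genes. CREB3L4, a membrane-bound factor related to ATF6, read 171.8 and 319.9 (0.90). MBTPS1, the protease that makes the first cut in ATF6, read 460.7 and 753.2 (0.71) but had a log2 ratio of -0.31 on its other probe set. The eIF2 alpha kinase EIF2AK2 lay at -0.36, and at 0.40 on another probe set, and the CCAAT-binding subunit NFYC, part of the complex that binds ERSE, at 0.36, and at -0.14 on the lowest of its 4.

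The list of ATF4 and genes downstream of EIF2AK3 through it had a median of -0.24. Of its 15 measured genes 11 were below 0 and 4 at least 1.5-fold lower, against 45.4% and 3.19% of all measured genes. That median was -0.13 when probe sets were averaged. With a floor at the 75th percentile it was -0.068, above that of the 10 ER sensors and chaperones. STC2, a secreted glycoprotein, read 442.7 and 218.2 (-1.02, 2.03-fold lower), the 1 gene of any list past 2-fold, but lay at -0.46 on its other probe set. DDIT4 read 1840.1 and 995.1 (-0.89) and CHAC1 264.9 and 144 (-0.88), each on 1 measured probe set. PPP1R15A read 415.5 and 247.3 (-0.75, and -0.67 on its other probe set). The 4 genes above 0 were ATF4 itself (0.15), DDIT3 (0.07), ATF5 (0.24) and CEBPG (0.26). EIF2AK3 itself had the log2 ratio of -0.09 given above. Of 13 chaperones of the cytosol and mitochondria 8 were below 0 (median -0.08) and 0 reached 1.5-fold. HSP90AA1 and HSP90AB1, the cytosolic relatives of HSP90B1, read 47545.5 and 41332.7 (-0.20) and 18172.6 and 15751 (-0.21). HSP90AA1 ranged from -0.25 to -0.01 over 4 probe sets. The cochaperones DNAJA3 and DNAJA2 lay at -0.27 and 0.22, but at -0.0022 and 0.02 on their other probe sets.

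**Figure D4:**
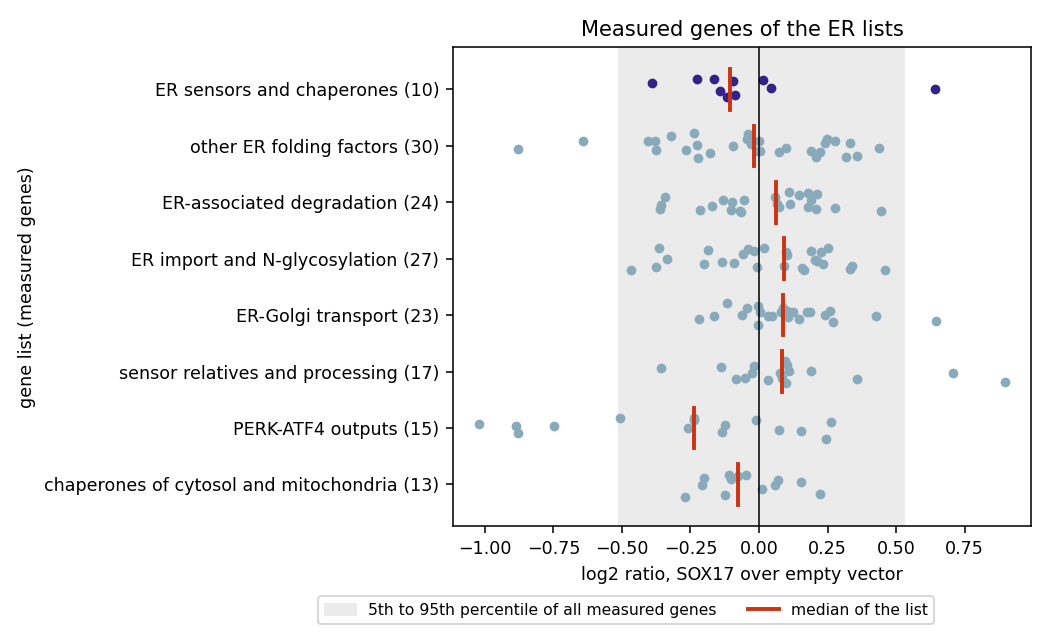
SOX17 over empty vector log2 ratio (x axis) for each measured gene of the 10 ER sensors and chaperones and of the 7 wider lists, with the number of measured genes in brackets and the list's median as a red line. The grey band runs from the 5th to the 95th percentile of all measured genes; the medians lie between -0.24 (PERK-ATF4 outputs) and 0.09, and that of the 10 genes at -0.10.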

How the data were processed

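RNA was measured on 2 Affymetrix expression arrays, 1 per group, from total RNA extracted with Trizol and labelled as biotinylated cRNA, per the labels' protocols. The authors deposited a linear intensity for every probe set, and the submitters' processing notes name GCOS. Its algorithm, version and detection calls are not given in the sources used here. Both arrays had a mean of 500.1 once 2% was trimmed at each end, a common scale set before deposit, and no further scaling was applied. A change of all transcripts alike would therefore not show. No interval is given, since the number of arrays limits the precision.

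Probe sets were named from GEO's annotation of the platform where it gives 1 gene, and 0 symbols needed an update from RefSeq. Control probe sets were left out of gene counts. The SD of 1 ratio is the pooled SD within genes of several measured probe sets in 1 tertile of level. The named genes are all members and, from each list, the measured genes furthest from a ratio of 0, at most 4. Those named for a promoter element were added, as were the PERK-ATF4 outputs above 0. The members and lists were chosen with earlier results of these data known. Alternatives were median centring, quantile normalization, loess (span 0.4), a lower floor (50th percentile), a higher one (75th) and none, averaging a gene's probe sets, removing IDs that end in _x_at or _s_at, and thresholds of 1.5-fold and 3-fold. Python 3.11.15, numpy 2.4.6, pandas 2.3.3 and statsmodels 0.14.6 were used, and the computation was tested on simulated data.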

Additional observations from a re-analysis of the deposited data

How the results depend on the processing

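No test, paired or not, was possible because each group was 1 array, both labelled replicate 1. The direction of 9 member genes was the same under every scaling and floor and with probe sets averaged. It held too with IDs ending in _x_at or _s_at removed, where a value was left. The exception was ERN1, which ran from -0.07 (mean over probe sets) to 0.04. ATF6 ran from 0.31 to 0.66, HSPA5 from -0.26 to -0.16 and DNAJB9 from -0.36 to -0.09. Taken singly, the 4 measured ATF6 probe sets differed in sign, from -0.24 to 0.84. With IDs ending in _x_at or _s_at removed, HSP90B1, HERPUD1 and SDF2L1 had no measured probe set, and 4 of the 7 genes left were below 0. At 1.5-fold, 1 member passed. The median of the ER import and N-glycosylation list was 0.0305 both after quantile normalization and after loess. With those IDs removed it was -0.0085, and that of the sensor relatives 0.0036. The median of the PERK-ATF4 outputs was -0.068 with the higher floor (75th percentile) and -0.13 when probe sets were averaged. The causes were not tested. The median of the other genes with ERSE, a result added after the data were seen, was 0.07 when probe sets were averaged and 0.04 with those IDs removed. With no floor or the higher one it was 0.24. Of the other alternative values for the wider lists 50 moved by less than their error. Probe sets near the floor of 95, such as those of KDELR3 and 2 of ATF6, carry the largest error.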
